A study of Drosophila melanogaster with 36 samples.

Results

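Red eyes in these *Drosophila melanogaster* strains mark an active pigment reporter, and the transcripts described here are those whose levels split the females of 6 strains most widely by eye colour. They are 60 of the 16637 transcripts measured. They were chosen by their female values alone: for each transcript the gap between the lower edge of one set of arrays and the upper edge of the other was taken on the log2 scale, for the splits REC against the rest, SIM1 against the rest, INV1 with INV2 against the rest, REV1 with REV2 against the rest, and red-eyed against white-eyed strains. Each transcript was assigned to its split of largest gap, 736 fell to the eye colour split, and the 60 of largest gap were kept. The female red to white differences are therefore a description, and no test is given for them. The male arrays took no part in the choice.

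The study rearranged a region of highly conserved gene order and asked whether its disruption alters expression. All strains carry w1118, which removes the eye pigment of the wild type. REC (w1118; P{RS3}CB-0236-3, P{RS5}5-HA-1995) holds both inserted elements intact and has red eyes, with the region undisturbed. INV1 and INV2 (w1118; In(2R)51F11-56E2) carry the inversion that disrupts the region, with the reporter rebuilt at a breakpoint, and have red eyes. SIM1, REV1 and REV2 (w1118; P{RS3r}CB-0236-3, P{RS5r}5-HA-1995) carry elements that lack a reporter exon and have white eyes. SIM1 was never inverted, and REV1 and REV2 are revertants of the inversion. Each sample was RNA from 50 virgin flies of one sex, aged 5 to 7 days, from low-density crosses, and every strain had 3 arrays per sex, lettered A to C. The strains are single stocks, so eye colour cannot be told apart from the inserts and the history that go with it.

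The *white* gene, from which the reporter derives, encodes a subunit of a membrane transporter that brings pigment precursors into the pigment cells of the compound eye. Flies without it have unscreened, white eyes. Each intact RS element holds a *white* reporter, from which recombination can remove an exon. The inversion rebuilds a working reporter. Eye colour thus reads out the state of the reporter, and REC has red eyes without the inversion. Whether a member is a transcript of *white*, of a gene beside an insert or of an eye gene could not be seen from the files: they list FlyBase transcript identifiers without gene names, the gene table used (Release 6 assembly) holds 44 of the 16637 identifiers (0.264%), and 0 of the 60 members are among them. Members are therefore given by identifier or by rank of their gap, with no role.

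Values are log2 of the intensities as deposited, whose median was 1339 on female and 1979 on male arrays. The spread between arrays of a strain was larger in males, with a median SD of 0.21 over all transcripts against 0.11 in females, and for the members 0.20 against 0.12. Of the 18 male arrays, 4 deviated alike, namely array C of SIM1, array B of REC and arrays A and B of INV1. Their deviations from the mean of the other 14 male arrays had correlations of 0.798 to 0.933 with each other across transcripts. The highest correlation of any of them with another male array was 0.509. Both eye colours are among them. Counts and medians over the members in males are also given without them, where INV1 keeps 1 array, which the fit assumes to vary like those of the other strains.

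The first 4 members stood far from the others in females. FBtr0086478, FBtr0086479, FBtr0070490 and FBtr0086477 had gaps of 2.25, 2.20, 1.52 and 0.56 between the nearest red-eyed and white-eyed arrays, whereas the gap of rank 5 was 0.24 and that of rank 60 was 0.02. FBtr0086478 and FBtr0086479 were lower in red-eyed females, FBtr0070490 and FBtr0086477 higher. In bulk RNA of whole samples, fewer cells of a type and less RNA per cell cannot be told apart.

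On the 9 red-eyed female arrays FBtr0086478 had log2 intensities from 7.90 to 8.43 (median 8.36), and on the 9 white-eyed female arrays from 10.68 to 11.81 (median 11.37). The mean difference was -3.05, or 8.31-fold. In males, red-eyed arrays lay between 8.52 and 9.99 (median 9.32) and white-eyed arrays between 12.28 and 12.92 (median 12.59). The eye colours did not overlap in either sex, and the male difference was -3.32 (standard error 0.092, limma adjusted p = 2.44e-12). In place among all transcripts of an array, FBtr0086478 lay between the percentiles 10.7 and 31.9 in red-eyed males and between 76.9 and 87.5 in white-eyed males.

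FBtr0086479 followed the same pattern. Red-eyed females had values from 7.59 to 8.18 (median 8.10) and white-eyed females from 10.39 to 11.08 (median 10.72), a difference of -2.77. Red-eyed males had values from 8.34 to 9.59 (median 9.02) and white-eyed males from 12.09 to 12.49 (median 12.27). The arrays did not overlap in either sex, and in males the difference was -3.33 (standard error 0.056, limma adjusted p = 2.29e-15), or 10.1-fold.

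FBtr0070490 moved the other way. Its values were 11.52 to 12.09 (median 11.95) in red-eyed females and 9.32 to 9.99 (median 9.69) in white-eyed females, a difference of 2.18, or 4.53-fold. In males they were 12.61 to 13.99 (median 13.09) with red eyes and 10.49 to 11.85 (median 11.61) with white eyes. The male difference was 1.69 (standard error 0.174, limma adjusted p = 1.89e-04), again without overlap. The extremes of the male values, 13.99 in REC B and 10.49 in SIM1 C, both came from arrays of the deviating set, and without that set the difference was 1.40 (limma adjusted p = 6.46e-06).

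FBtr0086477 was higher in red-eyed females, at 10.76 to 11.30 (median 11.09) against 9.83 to 10.20 (median 9.99), a difference of 1.09. In males, red-eyed arrays lay between 12.65 and 13.60 (median 13.42) and white-eyed arrays between 11.85 and 12.85 (median 12.15). Here the eye colours overlapped, because array C of SIM1 at 12.85, one of the deviating arrays, exceeded 2 arrays of REC. The male difference was 1.04 (standard error 0.108, limma adjusted p = 1.89e-04). The identifiers of FBtr0086477, FBtr0086478 and FBtr0086479 are consecutive, and whether they are transcripts of 1 gene or of neighbours is not given in the files. Their directions differed: the first was higher with red eyes and the other two were lower.

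The strains of 1 eye colour also had different levels of the leading members. Female means of FBtr0086478 (± SD over 3 arrays) were 7.99 ± 0.10 for REC, 8.39 ± 0.03 for INV1 and 8.37 ± 0.08 for INV2, whereas they were 11.67 ± 0.15 for SIM1, 11.25 ± 0.23 for REV1 and 10.98 ± 0.35 for REV2. FBtr0086479 had 7.65 ± 0.09 in REC females beside 8.11 ± 0.0040 in INV1 and 8.15 ± 0.05 in INV2, and 11.02 ± 0.05 in SIM1 beside 10.70 ± 0.13 in REV1 and 10.52 ± 0.12 in REV2. The most separate values of both were thus those of REC, lowest, and SIM1, highest. In red-eyed females FBtr0086479 was dim, between the percentiles 4.31 and 22.9 of all transcripts of an array.

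FBtr0070490 had its highest female mean in INV1 (12.06 ± 0.03), followed by INV2 (11.91 ± 0.12), REC (11.56 ± 0.06), REV2 (9.89 ± 0.12), REV1 (9.70 ± 0.03) and SIM1 (9.41 ± 0.08). In this order no strain's arrays overlapped those of the next. In males the order was INV1 (13.33 ± 0.13), REC (13.21 ± 0.71), INV2 (13.01 ± 0.07), REV1 (11.66 ± 0.17), REV2 (11.60 ± 0.07) and SIM1 (11.23 ± 0.66), and the arrays of neighbours of 1 eye colour overlapped.

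**Figure D1:**
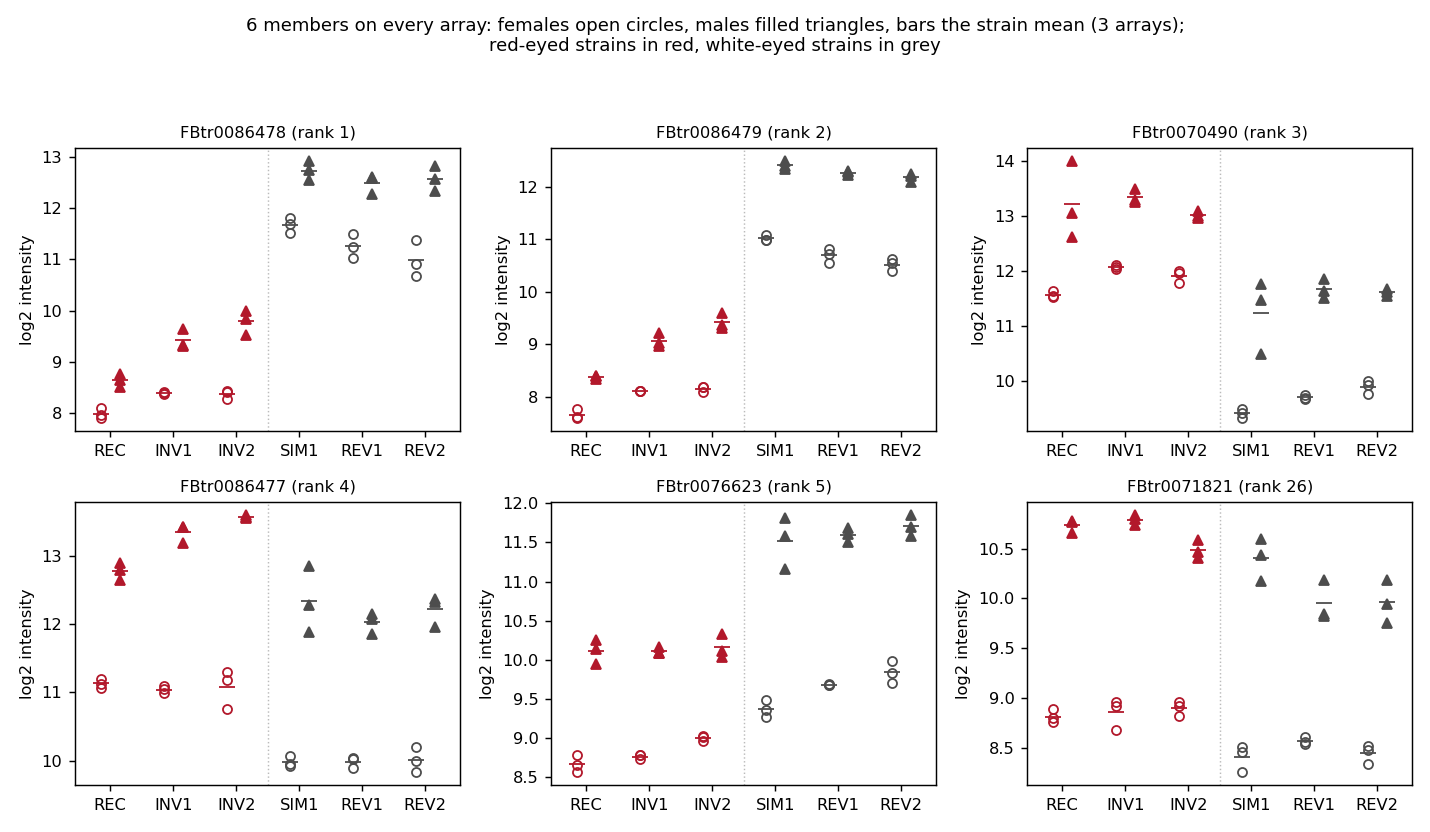
Log2 intensity (vertical axes) of 6 members on every array, by strain, with females as open circles and males as filled triangles, red-eyed strains in red, white-eyed strains in grey and bars at the mean of 3 arrays. FBtr0086478 and FBtr0086479 are lower and FBtr0070490 and FBtr0086477 higher with red eyes in both sexes, with male differences of -3.32, -3.33, 1.69 and 1.04 in this order.

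The male arrays gave the test of the members outside the samples that chose them. The males were of the same stocks as the females. The p-values measure the spread between arrays of a strain, not between stocks of an eye colour. Red-eyed minus white-eyed males, fitted by limma over all transcripts with one mean per strain, called 6 of the 60 members at an adjusted p under 0.01, where 11 of all 16637 transcripts (0.0661%) were called. All 6 had the direction seen in females, 3 higher (background 0.024%) and 3 lower (background 0.0421%) with red eyes. At an adjusted p under 0.05 there were 11 members (0.18% of all transcripts). Besides the 4 leading members, those called at 0.01 were FBtr0076623 and FBtr0071821, which are named after their values were seen.

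FBtr0076623, of rank 5, was lower in red-eyed flies. Its female values were 8.57 to 9.03 (median 8.78) with red eyes and 9.27 to 9.99 (median 9.68) with white eyes, a difference of -0.82. The male values were 9.95 to 10.33 (median 10.11) and 11.16 to 11.85 (median 11.61), without overlap. The male difference was -1.48 (standard error 0.084, limma adjusted p = 7.34e-08), with a 95% interval from -1.66 to -1.30. Whether the male and female differences differ was not tested, since the female value chose the member.

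FBtr0071821, of rank 26, had 8.69 to 8.96 (median 8.89) in red-eyed and 8.26 to 8.61 (median 8.51) in white-eyed females. In males it had 10.41 to 10.84 (median 10.74) and 9.76 to 10.59 (median 10.18), and the arrays overlapped. Its male difference was 0.56 (standard error 0.077, limma adjusted p = 0.00337). This call was the least firm of the 6: it held under 17 of the 29 other settings tried, and without the deviating arrays its adjusted p was 0.0167 (difference 0.57).

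The largest female differences among members not called in males were those of FBtr0085778 and FBtr0079517. FBtr0085778 had 11.95 to 12.62 (median 12.46) in red-eyed and 10.93 to 11.73 (median 11.57) in white-eyed females, a difference of 0.89. Its male values, 13.13 to 13.89 (median 13.58) against 12.58 to 13.50 (median 13.09), overlapped. The male difference was 0.50 (95% interval 0.26 to 0.73, limma adjusted p = 0.127).

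FBtr0079517 had 9.46 to 10.04 (median 9.80) against 8.64 to 9.24 (median 8.90) in females, a difference of 0.84. In males it had 10.73 to 11.73 (median 10.93) against 10.09 to 10.996 (median 10.53), with a difference of 0.52 (95% interval 0.23 to 0.80, limma adjusted p = 0.191). It passed the threshold without the deviating arrays (0.69, limma adjusted p = 0.00625).

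Over all 60 members, 46 were higher and 14 lower in red-eyed females. The size of the female difference had a median of 0.47 and exceeded 1 in the 4 leading members. In the other 56, of which 44 were higher and 12 lower, it ran from 0.15 to 0.89, that is from 1.11-fold to 1.86-fold with a median of 1.38-fold. At the limit of the set, rank 60 had a gap of 0.0183 and rank 61, just outside, 0.0175. The female differences were -0.70 and -0.24, and the male differences -0.22 and -0.04. Of all transcripts, 81 (0.487%) had no overlap between red-eyed and white-eyed females, 8 of them assigned to another split and 13 ranked after the 60.

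In males, 54 of the 60 members differed in the direction of the females, 43 of the 46 higher and 11 of the 14 lower ones. Over all transcripts, 48.8% of male differences were above 0 and 51.2% below. The median male difference was 0.33 over the higher members and -0.21 over the lower ones, beside -0.0032 over all transcripts. Of the 6 members with the opposite sign, none reached a size above 0.11, and all 6 intervals of 95% held 0. At an unadjusted p under 0.05 there were 41 members, all in the female direction, against 6.79% of all transcripts. Without the 4 deviating arrays, 56 members had the female direction, the medians were 0.40 and -0.20, 45 members had an unadjusted p under 0.05 (10.7% of all transcripts) and 8 were called (0.132% of all transcripts, 22 calls in place of 11).

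The male differences were mostly smaller. For 49 members the male difference in the female direction was below the female one, and its median was 0.33 against 0.47. The female values chose the members, so the 2 medians are given side by side without a test. The male 95% interval reached a median of 0.20 to either side of the difference. Among the 54 members not called, the median adjusted p from limma was 0.402. The widest male interval belonged to FBtr0077572, of rank 46 and named after its values were seen. Its female values were 10.89 to 11.30 (median 11.05) with red eyes and 10.41 to 10.86 (median 10.72) with white eyes. In males they ran from 10.68 to 13.44 (median 10.87) and from 10.48 to 12.91 (median 10.79), and the 4 highest, at 13.44, 12.98, 12.91 and 12.85, were the 4 deviating arrays. The male difference was 0.53, with a 95% interval from -0.28 to 1.33, and without these arrays it was 0.01.

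Across the 60 members, which share arrays, the female and male differences had a correlation of 0.931. It fell to 0.76 without the 4 leading members, and was 0.342 within the other higher members and 0.454 within the other lower ones, given here as a description.

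**Figure D2:**
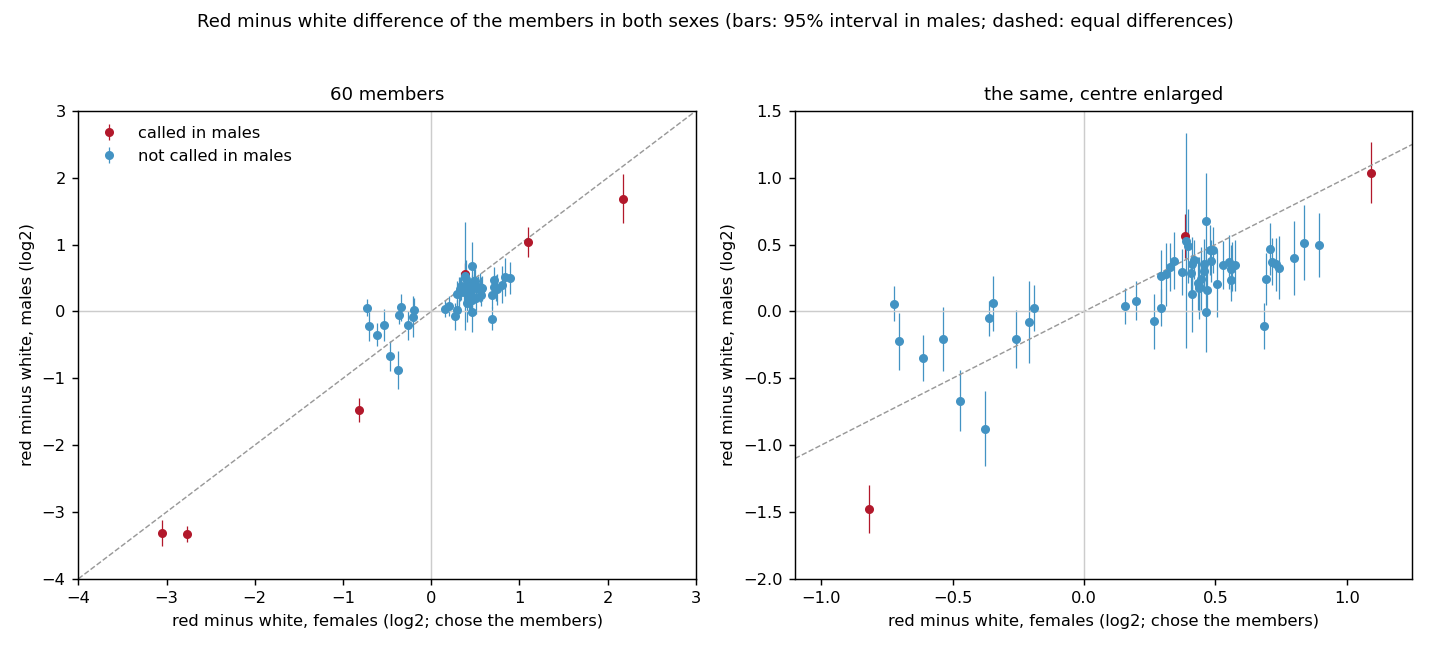
Red minus white difference in females (horizontal axis, log2) and in males (vertical axis, log2, with its 95% interval) for the 60 members, with the centre enlarged on the right; red points were called in males, blue points were not, and the dashed line marks equal differences. In males 54 members share the sign of their female difference, and 49 have a smaller difference than in females.

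By rank, the share of members that repeated their direction in males did not fall steadily. All 5 members of ranks 1 to 5 had it and were called. Of the 15 of ranks 6 to 20, 12 had it, with a median male difference of 0.34 in the female direction beside a female median of 0.71, and 0 were called. All 20 of ranks 21 to 40 had it, with a male median of 0.35 beside 0.46, and 1 was called. Of the 20 of ranks 41 to 60, 17 had it, with a male median of 0.22 beside 0.39.

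Complete separation of the 9 red-eyed from the 9 white-eyed arrays held for all 60 members in females by the choice. The member counts of the sexes are therefore not compared. Over all transcripts, 81 (0.487%) had it in females, whose arrays varied less than those of males. In males it held for 5 members, where 9 of all transcripts (0.0541%) had it. They were FBtr0086478, FBtr0086479, FBtr0070490, FBtr0076623 and, by a gap of 0.0025, FBtr0072381, which is of rank 49 and named after its values were seen. FBtr0072381 had 10.43 to 11.11 (median 10.70) in red-eyed and 9.94 to 10.40 (median 10.27) in white-eyed females, and 11.96 to 12.47 (median 12.19) and 11.47 to 11.95 (median 11.78) in males. Its male difference was 0.46 (limma adjusted p = 0.0322), so it was not called. Without the 4 deviating arrays, where fewer arrays have to separate, 10 members and 0.301% of all transcripts had no overlap.

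The strains of one eye colour were not alike. Among the 46 higher members, INV1 was the highest red-eyed strain in 37 in females and REC the lowest in 31, and among white-eyed strains SIM1 was the highest in 28. The median deviation of these members from the mean of the female strains was 0.15 in REC, 0.37 in INV1 and 0.22 in INV2, and -0.17 in SIM1, -0.28 in REV1 and -0.27 in REV2. Over the higher members, the median difference of REC and SIM1, at 0.30, was the smallest of the 9 pairs of a red-eyed and a white-eyed female strain, and that of INV1 and REV2, at 0.65, the largest. Over the lower members the smallest was that of INV2 and REV2, at -0.36, and REC and SIM1 had -0.44. These female values describe arrays that chose the members.

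In males the same members had SIM1 as the highest white-eyed strain in 37 of 46, with a median deviation of 0.01, against -0.24 in REV1 and -0.22 in REV2 and 0.15, 0.21 and 0.12 in REC, INV1 and INV2. INV2 exceeded SIM1 in 34 of the 46 (50.9% of all transcripts), with a median of 0.12. It exceeded REV1 in 43 (49.2% of all transcripts), with a median of 0.31. The members share arrays, so these counts are not of separate observations. Shares of all transcripts are not given here for SIM1 as the highest white-eyed strain, nor for INV2 against SIM1 without the deviating arrays. INV1 exceeded REV1 by a median of 0.51. All 3 red-eyed male means lay above all 3 white-eyed means in 25 of the 46 higher members (2.79% of all transcripts), and below them in 5 of the 14 lower ones (1.27% of all). Without the deviating arrays SIM1 was the highest white-eyed strain in 39 of the 46, with a median deviation of -0.01, and INV2 exceeded it in 33, with a median of 0.05. INV1 exceeded REV1 by a median of 0.63. The separation of all strain means then held for 27 higher members (3.62% of all transcripts) and 7 lower ones (2.73% of all).

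**Figure D3:**
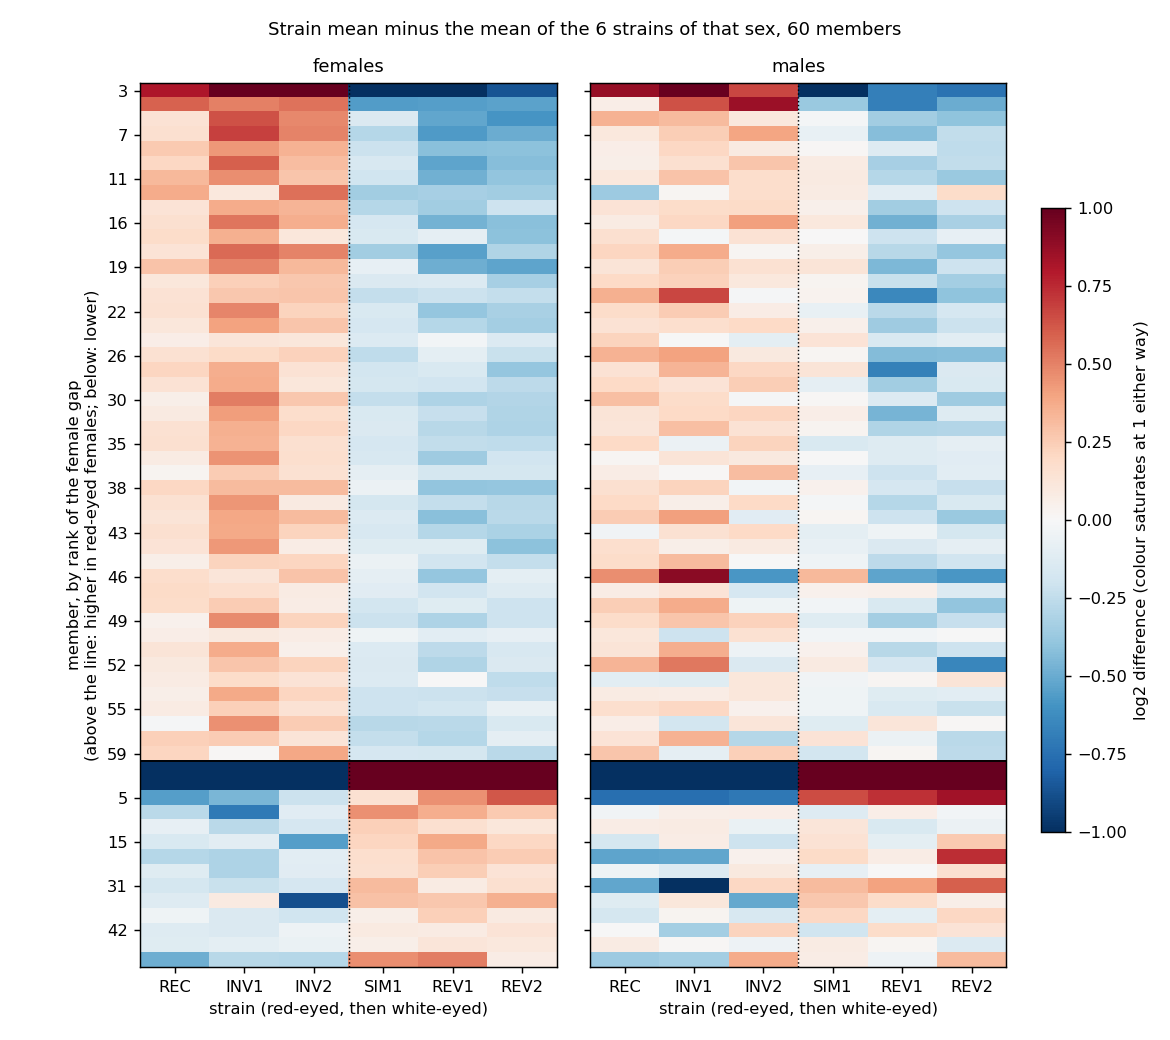
Mean of each strain minus the mean of the 6 strains of that sex (colour, log2, saturating at 1 either way) for the 60 members, numbered by rank of the female gap, with those higher in red-eyed females above the black line and those lower below it; females on the left, males on the right. In males the higher members are close to 0 in SIM1 (median 0.01) and lower in REV1 and REV2 (-0.24 and -0.22).

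Differences between strains of one eye colour were tested in males. REV1 and REV2 against SIM1 gave a difference above 0 in 6 of the 46 higher members, with a median of -0.25 (0.0042 over all transcripts), and 18 of the 60 members had an unadjusted p under 0.05 (6.68% of all transcripts). None of the members was called at an adjusted p under 0.01 (0.012% of all transcripts), and the lowest adjusted p from limma among them was 0.425. Array C of SIM1 is in the deviating set. Without that set the median was -0.24 and 22 members had an unadjusted p under 0.05 (4.32% of all transcripts), still with 0 called. In females the same contrast had a median of -0.08 over the higher members, 12 of 46 being above 0.

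Among red-eyed males, INV1 and INV2 were compared with REC, and 6 members had an unadjusted p under 0.05 (4.8% of all transcripts). Of the deviating arrays, 3 are in this contrast, and without the whole set 8 members had such a p where 15.5% of all transcripts did, so that the members' share lay above the background with these arrays and below it without them. FBtr0086479 was called, higher in the INV strains by 0.87 (standard error 0.084, limma adjusted p = 4.23e-04; 0.012% of all transcripts called). Its log2 intensity on the 3 arrays was 8.34, 8.40 and 8.39 in REC, 8.97, 9.02 and 9.20 in INV1, and 9.37, 9.31 and 9.59 in INV2. Every INV array thus exceeded every REC array, and all of them lay far below the white-eyed arrays. These red-eyed values were dim, between the percentiles 8.10 and 25.5 of all transcripts of an array. FBtr0086478 was higher in the INV strains by 0.97 (limma adjusted p = 0.0205), and FBtr0086477, which moved the other way with eye colour, was higher in them too, by 0.68 (limma adjusted p = 0.781). Without the deviating arrays FBtr0086479 was higher in the INV strains by 0.95 (limma adjusted p = 0.00705), FBtr0086478 by 1.14 (0.0831) and FBtr0086477 by 0.73 (0.109). With all arrays, FBtr0070490 and FBtr0076623 differed by -0.04 and 0.02, with standard errors of 0.261 and 0.126.

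INV2 minus INV1 had 0 members called in males (0.018% of all transcripts) and 20 with an unadjusted p under 0.05 (31.8% of all transcripts), and 2 of the 3 INV1 arrays are in the deviating set. REV2 minus REV1 had 0 called (0% of all transcripts) and 5 with an unadjusted p under 0.05 (9.39% of all transcripts). Without the deviating set, INV2 minus INV1 had 19 members with an unadjusted p under 0.05 where 19.8% of all transcripts had one, and REV2 minus REV1 had 10 where 23.8% had one. None of the members was called in either contrast without that set (0.012% and 0.024% of all transcripts).

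**Figure D4:**
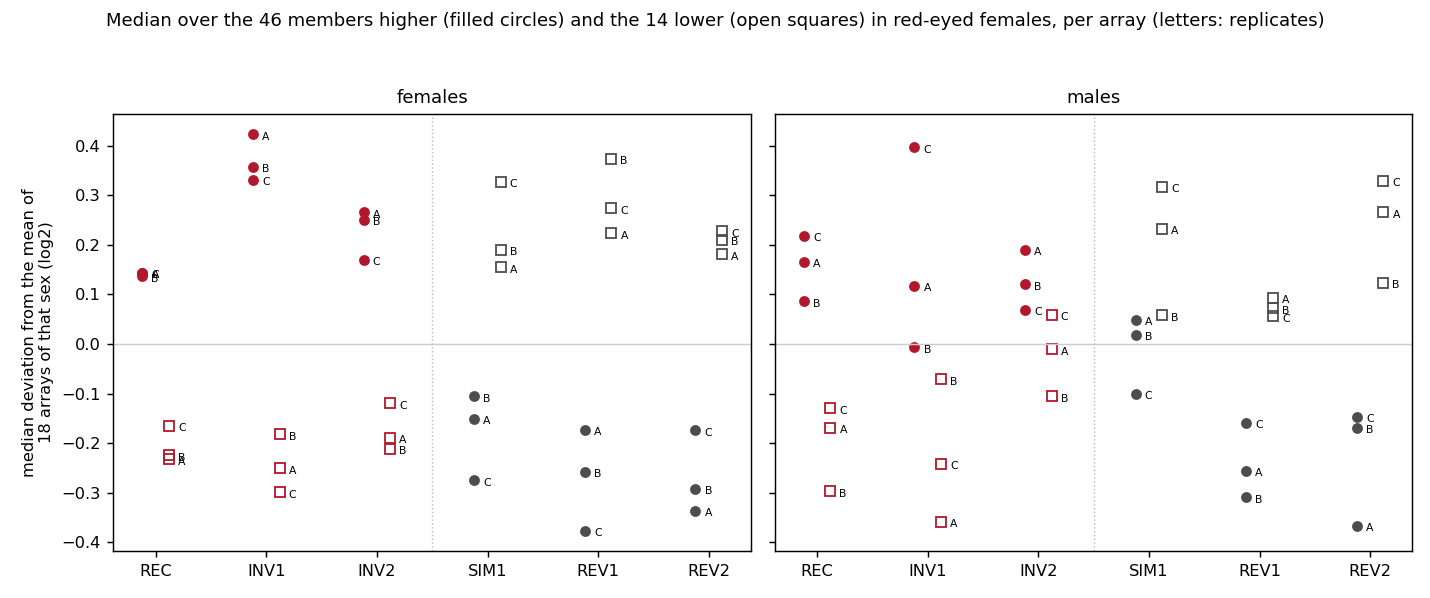
Median over the 46 members higher in red-eyed females (filled circles) and over the 14 lower ones (open squares) of the deviation from the mean of the 18 arrays of that sex (vertical axis, log2), for each array, with its replicate letter, by strain. Female medians of the higher members run from 0.14 to 0.42 with red eyes and from -0.38 to -0.11 with white eyes by choice of the members, whereas in males they run from -0.0062 to 0.40 and from -0.37 to 0.05.

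Array by array, the medians of the higher members overlapped little between the eye colours in males. Their deviation from the mean of the 18 male arrays was between -0.0062 and 0.40 on red-eyed and between -0.37 and 0.05 on white-eyed arrays. The sets overlapped through array B of INV1 (-0.0062) and arrays A and B of SIM1 (0.05 and 0.02). The lower members had medians from -0.36 to 0.06 on red-eyed and from 0.06 to 0.33 on white-eyed male arrays, and array C of INV2, at 0.0592, exceeded the lowest white-eyed arrays. Over the 14 arrays outside the deviating set, the higher members had medians from 0.09 to 0.42 with red eyes and from -0.35 to 0.06 with white eyes, and the lower members from -0.22 to -0.0066 and from 0.00023 to 0.29, so that the eye colours did not overlap.

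The members also differed between the sexes, and the choice did not use the level of males against females. The fit takes part of its spread from the female arrays that chose the members. Its calls and p-values are therefore not independent of that choice. On the deposited scale, male minus female values had a median of 0.39 over all transcripts, which became -0.09 after scale normalization over all arrays and -0.19 after quantile normalization. Limma called 57 of the 60 members between the sexes (51 higher and 6 lower in males), where 93.5% of all transcripts were called (57.8% higher and 35.7% lower), so that the count alone was near the background. The directions depended on the scaling: after scale normalization 48 members were called higher and 9 lower in males, and after quantile normalization 45 and 11, while the share of all calls that were higher in males was 61.8% as deposited, 45.2% after scale and 39.8% after quantile normalization. Relative to the median of all transcripts, 51 members were higher in males, 44 of the 46 higher and 7 of the 14 lower ones. After scale and quantile normalization 50 members were above that median each time, with 43 and 42 of the 46.

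The sex differences of the 46 higher members ran from -0.07 to 2.18 with a median of 1.46, which is 1.08 above the median of all transcripts, and 36 of them lay between 1 and 2, where 18.7% of all transcripts lay. In the 14 lower members the differences ran from -2.18 to 4.51 with a median of 0.52, and 7 were below 0. These medians moved with the scaling, to 0.89 and -0.03 after scale normalization and to 1.31 and 0.19 after quantile normalization. The sex difference of the higher members had a median of 1.37 in red-eyed and 1.61 in white-eyed strains. Over all 18 arrays of a sex the median log2 intensity of the higher members was 10.74 in females and 12.34 in males, beside 10.38 and 10.95 for all transcripts, and that of the lower members 9.95 and 10.51.

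**Figure D5:**
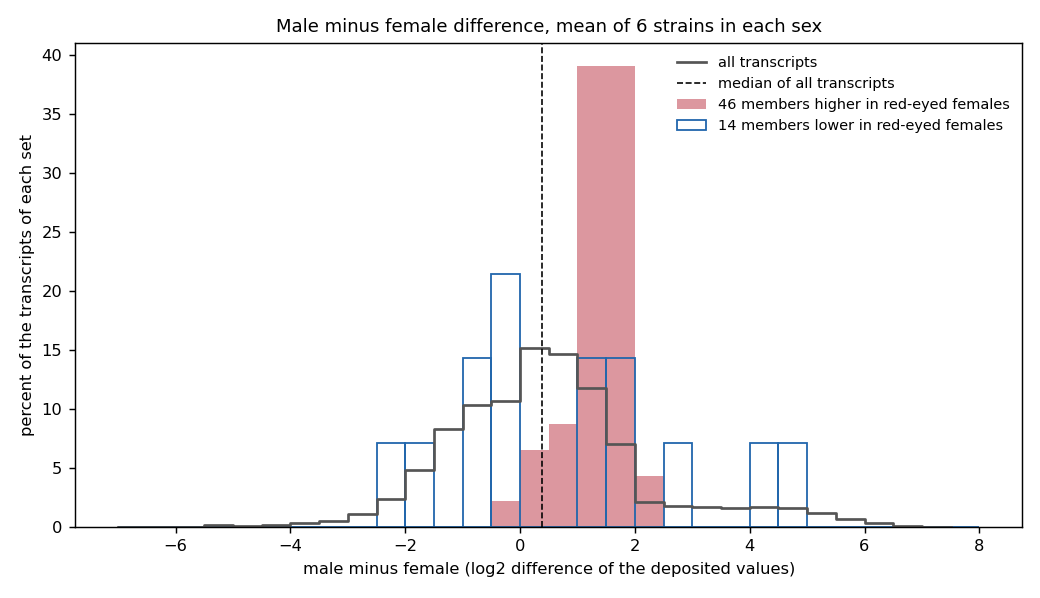
Male minus female difference (horizontal axis, log2 of the deposited values, mean of 6 strains in each sex) as percent of each set (vertical axis): all 16637 transcripts (grey line), the 46 members higher in red-eyed females (red bars) and the 14 lower ones (blue outlines), with the median of all transcripts dashed. Of the higher members, 36 lie between 1 and 2.

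The leading members were all brighter in males on the deposited scale. FBtr0086477 exceeded the female level by 2.18, FBtr0076623 by 1.65, FBtr0070490 by 1.59, FBtr0086479 by 1.26 and FBtr0086478 by 1.17, each with an adjusted p of at most 4.39e-16 by limma. All 5 differences exceeded the shift of 0.39 over all transcripts. The fit used the female arrays that chose these members, so these p-values are not independent of the choice.

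The members shared little else that the files hold. Their mean female levels covered the range of the arrays, from the percentile 4.93 to 97.5 with a median of 51.2, and 8 of the 60 were in the dimmest 25% in females and 4 in males. By identifier, 11 members stood next to another member, in 5 runs of consecutive numbers. Besides the run of the leading members, 4 pairs followed each other. In 3 of these pairs both members had 1 direction in females, and in the other pair, of ranks 12 and 60, the female directions were opposite (0.68 and -0.70), whereas the male differences were -0.11 and -0.22. The transcripts of a run may share probes or a gene, which the files do not show, so they need not be separate observations.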

How the data were processed

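RNA of males and females of 6 *Drosophila melanogaster* strains was hybridized on one-colour NimbleGen arrays designed on annotation release 5.7. Per the methods, the authors took the median of a transcript's probes on a log scale and then applied limma's scale normalization to the arrays. The authors' deposited table holds linear intensities of 16637 transcripts on 36 arrays. At each rank of brightness the arrays of a sex differ by at most 0.972% in females and 1.14% in males, as quantile normalization within a sex would leave them and scale normalization alone would not, so the step that set the level between the sexes is not known. Background correction and slide are not given in the sources used here. Groups came from the labels and eye colour from the study. Intensities were converted to log2 and otherwise kept as deposited. No filter was applied. Each contrast was fitted over all transcripts by limma 3.58.1 in R 4.3.3 (lmFit, eBayes), males alone for eye colour and all 36 arrays for sex, with Benjamini-Hochberg adjustment and calls at an adjusted p under 0.01. On simulated data, the fits were tested with 200 changed transcripts. Tables were made with Python 3.11.15, numpy 2.4.6 and pandas 2.3.3.

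The members, the set of deviating arrays and the contrasts were chosen with earlier results of these data known. Identifiers are printed for the 2 members of largest gap in each direction, the 2 called male differences of largest size in each direction and the 2 largest female differences among members not called in males. Other settings were scale or quantile normalization, leaving out the dimmest 25%, a replicate block (the letters), a looser adjusted p of 0.05, array weights, limma's trend and robust options, the methods' one-way comparison, a single fit of all arrays, and leaving out the deviating arrays or each array in turn. The number of arrays limits the precision. P-values measure the spread between samples of 1 strain and sex, which the methods call biological replicates. Lists of eye, heat shock and tissue genes were not analysed here, since identifiers could not be paired with genes.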

Additional observations from a re-analysis of the deposited data

Results flagged for a closer look

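Among the 32 sets of 9 arrays looked at (8 named members, 2 sexes, 2 eye colours), 2 held an array that stood far from the other 8. The limit is one that about 1 in 20 sets of 9 values from a single homogeneous group would pass. Each set here pools several strains, so the count of 2 in 32 is not weighed against that rate. The sets share arrays and are not independent. In each of the 2 sets it was array C of SIM1 males. FBtr0070490 was at 10.49 there, where the other white-eyed males lay between 11.46 and 11.85, and the distance to the nearest of them was 0.716 of the whole range. FBtr0076623 was at 11.16, where the others lay between 11.50 and 11.85, a distance of 0.498 of the range. The limit for 9 arrays is 0.493. This array is one of the 4 that deviated alike over all transcripts. Without it, FBtr0070490 and FBtr0076623 were still called between red-eyed and white-eyed males, 9 members were called in place of 6 (0.132% of all transcripts in place of 0.0661%), and 7 had no overlap in place of 5 (0.138% in place of 0.0541%). The part of the array's deviation in these values was not tested.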

How the results depend on the processing

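The count of 6 members called between red-eyed and white-eyed males was 6 after scale or quantile normalization, 7 without the dimmest 25% of transcripts, 4 by the methods' one-way comparison and 8 without the 4 deviating arrays. For the normalizations and the dimmest 25% the totals over all transcripts are not given here. The 7 beside 6 is therefore not read as a trait of the members. With array weights it was 34 (2092 of all transcripts called), at an adjusted p under 0.05 it was 11 (30), and in a single fit of all 36 arrays 24 (100). The single fit takes its spread partly from the female arrays that chose the members, so its count is not independent of that choice. Within a sex the deposited arrays were nearly equal at each rank, which left little for scale or quantile normalization to change. The looser threshold could not lose a call. All transcripts called were 11 at the main setting, 22 without the deviating arrays, 22 without array C of SIM1 and 7 by the one-way comparison. Leaving out each male array in turn gave 5 to 9 members, 9 to 22 transcripts and 5 to 7 members without overlap, the highest each time without array C of SIM1. Members without overlap were 10 without the deviating arrays (50 of all transcripts). FBtr0086478, FBtr0086479, FBtr0070490 and FBtr0076623 were called in males under all 29 settings run, and FBtr0086477 under 28, the exception being the one-way comparison (adjusted p = 0.0158). FBtr0071821 was lost without any 1 of 9 arrays (B or C of REC, A or B of INV1, INV2 or REV1, or C of REV2), its adjusted p values over the settings running from 2.39e-06 to 0.11.

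Within an eye colour, array weights called 20 members between INV1 and INV2 males (41% of all transcripts), 3 between INV and REC (0.138%) and 12 between REV and SIM1 (1.5%). At an adjusted p under 0.05 the counts were 3 for INV2 minus INV1 (FBtr0112432, FBtr0072890 and FBtr0086328, named after their values were seen, 2.14% of all transcripts) and 2 for INV minus REC (0.018%). Leaving out each male array in turn gave 1 to 1 for INV minus REC and 0 to 0 for the other contrasts. Members called between the sexes were 50 to 59 over all settings and 57 to 58 with each array left out, where 93.5% of all transcripts were called at the main setting. The shares of all transcripts with each array left out are not given here, so these counts are not read as a trait of the members. The cause of these changes was not tested.

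The replicate letters are shared by the strains, and of 90 same-letter pairs of arrays 31 had deviations correlated above 0.1 (range -0.889 to 0.66). Pairs of different letters are not set beside them here. In 18 pairs of a male and a female array of the same letter, the correlations ran from -0.273 to 0.321. Whether a letter marks a shared cross is not stated, and the main sex contrast used no pairing. With the replicate block, 5 members were called between red-eyed and white-eyed males (FBtr0071821 lost, adjusted p = 0.0113), 9 of all transcripts, 57 members between the sexes, and 2 in INV minus REC. It called 0 members in INV2 minus INV1, REV2 minus REV1 and REV minus SIM1. For the sex contrast and those within an eye colour, the share of all transcripts with the block is not given here. These member counts are therefore not set against a background.

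The choice of members itself depended on single female arrays. Of the 60, 36 to 60 were kept with each female array left out, 36 without array C of REV2, and 30 were among the 60 lowest p values of limma in females. That ranking uses the same arrays that chose the members, so it describes the choice and is no independent check. After scale and quantile normalization 60 and 59 were kept, where the near equality of the deposited female arrays at each rank left little to change.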
